A study of Homo sapiens with 6 samples.

Results

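The type I and type II receptors of the transforming growth factor beta (TGF-beta) superfamily were read in HEK293, a human embryonic kidney cell line, with 3 control libraries and 3 libraries labelled as MOCS2 knockdown by RNAi. They are 10 genes of 60675 in the count table. AMHR2, the receptor of anti-Müllerian hormone (AMH), was chosen by its lower counts in the knockdown-labelled libraries, and the other 9, the type I receptors BMPR1A, BMPR1B, ACVR1, ACVR1B and TGFBR1 and the type II receptors BMPR2, ACVR2A, ACVR2B and TGFBR2, were taken as its relatives. The difference in AMHR2 is therefore given as a description with no test. Both groups grew in high-glucose medium with serum and Geneticin, control cells are labelled wild type, and the labels do not say whether the knockdown cells were 1 clone or whether replicates were separate cultures, so p-values measure the spread between these libraries, which may be technical.

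Ligands of this superfamily bring together a pair of type II receptors, whose kinases are always active, with a pair of type I receptors, which they phosphorylate. The type I receptor then phosphorylates SMAD proteins that enter the nucleus with SMAD4. ACVR1, BMPR1A and BMPR1B, used by AMH and bone morphogenetic proteins (BMPs), act on SMAD1, SMAD5 and SMAD9, while TGFBR1 and ACVR1B, used by TGF-beta and activin, act on SMAD2 and SMAD3. AMHR2 binds AMH alone and is best known in the gonads and the embryonic Müllerian duct, where its signal makes the duct regress in males.

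Reads assigned to genes ranged from 17958632 to 22171106 per library. MOCS2 stood at 57.8, 66.6 and 65.6 CPM (reads scaled to library size with TMM factors) in controls 1, 2 and 3 against 69.8, 58.9 and 59.9 CPM in the knockdown-labelled libraries 1, 2 and 3, so that its log2 fold change was -0.01 (SE 0.14, adjusted p = 0.976 by edgeR). The MOCS2 count summed over the gene thus did not show the labelled knockdown, and single transcripts and protein were not read. Every direction here is that of the knockdown-labelled libraries set against controls. In the library labelled knockdown 2, 37.5% of uniquely aligned reads lay outside genes, against 21.5% to 24.95% in the other 5. Of 9 genes chosen as HEK293 markers, all 9 passed the filter on low counts. Neurofilament NEFL stood at 156.9 to 167.3 CPM in controls and 116.2 to 133.8 CPM in the knockdown-labelled libraries. The kidney-lineage factor PAX2 stood at 0.905 to 1.62 CPM over both groups. Of the 9, 1 was higher with no overlap (VIM) and 2 were lower (NEFL and LHX1), beside 12.5% and 14.3% of all genes. Summed over 6 blood cell markers, libraries held 2.56 to 4.40 CPM, and over 9 fibroblast markers 21.9 to 33.3 CPM in controls and 12.6 to 25.03 CPM in the knockdown-labelled libraries, the difference lying mainly in LUM.

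AMHR2 (ENSG00000135409), chosen for its lower counts, was the only member whose 3 knockdown-labelled libraries all lay below the 3 controls. The same held for 14.3% of all genes tested. It lies on the plus strand of chromosome 12, from 53423855 to 53431534 (GRCh38), and no other annotated gene overlaps it. It was counted in 69, 69 and 67 reads in controls 1, 2 and 3 and in 11, 13 and 17 reads in the knockdown-labelled libraries 1, 2 and 3. Counting error alone gives 67 reads an exact 95% Poisson interval of 51.9 to 85.1 reads, and 17 reads one of 9.90 to 27.2 reads. As these counts chose AMHR2, the intervals, its rank and its leave-one-out range describe the difference and do not test it. Scaled to library size these were 3.10, 3.10 and 3.37 CPM against 0.622, 0.691 and 0.897 CPM. The controls lay close together, the knockdown-labelled libraries lay close together, and the groups did not overlap. The means of 3.19 ± 0.158 and 0.737 ± 0.143 CPM (SD, n = 3) differed 4.33-fold, a log2 fold change of -2.10. Ordered from the most negative, this was number 27 of the 18267 genes tested, whose median log2 fold change was 0.02. Leaving out any 1 library kept it between -2.27 and -2.001. Knockdown 2, the library with the most reads outside genes, sat between the other libraries of its label. In bulk RNA, fewer cells with the transcript and less transcript per cell cannot be told apart.

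Markers of the gonadal cells in which AMHR2 is usually studied were mixed. Of 12 markers of gonadal somatic cells, 4 passed the filter, AMH, SOX9, GATA4 and DMRT1, while FSHR, the follicle-stimulating hormone receptor, and FOXL2, a granulosa cell factor, reached at most 0.106 and 0.372 CPM in any library. CYP19A1, the aromatase that makes estrogens in granulosa cells, did not pass the filter but stood at 2.23 CPM in knockdown 2, above AMHR2 in that library (0.691 CPM), and at 0.0449 to 0.226 CPM in the other 5. The steroidogenic factor NR5A1 was also highest in knockdown 2, at 0.691 CPM against 0.158 to 0.283 CPM in the other 5. The part of CYP19A1 or NR5A1 in the AMHR2 values was not tested. The maxima of FSHR and FOXL2 also lay in knockdown 2, the library with the most reads outside genes. This was not particular to gonadal markers. Of fibroblast and blood cell markers below the filter, COL1A2, PDGFRB, FAP, PTPRC, CD3E and CD68 were highest there too. THY1, HBB and HBA1 were not. The summed level of the 12 gonadal markers was 50.1 to 59.2 CPM in controls and 53.5 to 68.1 CPM in the knockdown-labelled libraries. AMH itself, the ligand, was measured at 13.6, 12.2 and 5.99 CPM in controls, against 15.2, 10.6 and 16.7 CPM in the knockdown-labelled libraries (log2 difference 0.42, SE 0.30, edgeR adjusted p = 0.449), and the groups overlapped.

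Among all 15911 other tested genes with a mean of at least 1 CPM, 5 had the log2 CPM profile most like AMHR2 over the 6 libraries, with Pearson r from 0.990 to 0.995. TKFC, a kinase of triose and dihydroxyacetone metabolism, averaged 17.8 ± 0.473 CPM in controls against 12.9 ± 0.819 CPM in the knockdown-labelled libraries. USP35, a deubiquitinase, averaged 5.37 ± 0.0661 and 4.22 ± 0.209 CPM, and the transmembrane protein gene TMEM60 15.4 ± 0.705 and 10.3 ± 0.727 CPM. The others were a small nuclear RNA annotated as RF00003 (20.2 ± 1.56 and 8.70 ± 1.60 CPM) and the antisense RNA AC097534.2 (2.33 ± 0.0958 and 0.934 ± 0.198 CPM). All 5 had smaller differences than AMHR2, and any tightness within groups follows from the choice by likeness to it. The 6 libraries share the split into 2 groups, and the likeness is given with no test.

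**Figure D1:**
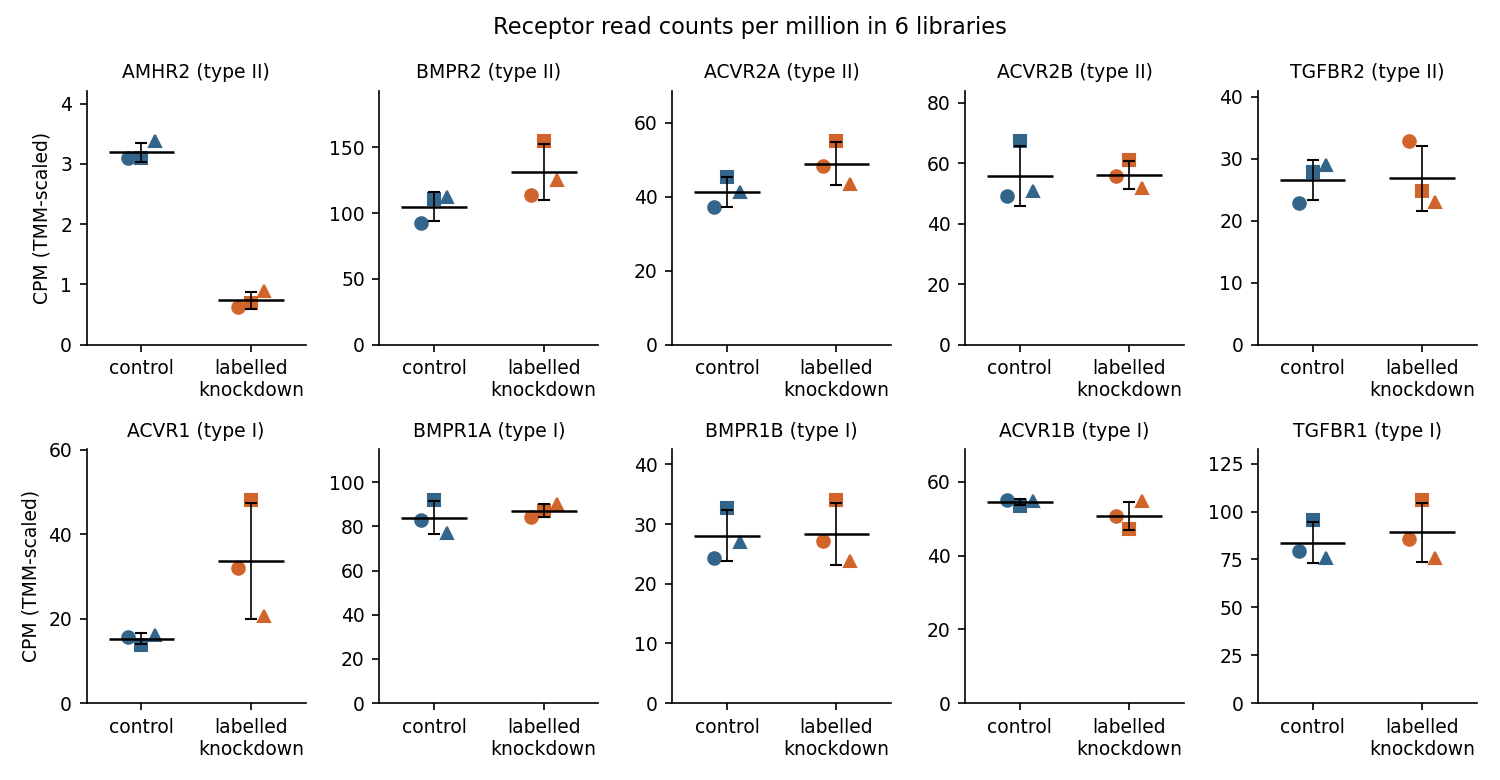
Read counts (CPM, scaled by TMM factors, linear axes from 0, a separate scale per gene) of the 10 receptors in controls (blue) and knockdown-labelled libraries (orange). Circles, squares and triangles are replicates 1, 2 and 3, with the mean and SD in black. AMHR2 sits at 3.10 to 3.37 CPM in controls and 0.622 to 0.897 CPM in the other group, and ACVR1 at 13.9 to 16.2 and 20.7 to 48.1 CPM.

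The bases just upstream of AMHR2 held fewer CG pairs than those of its relatives. The 250 bases before the first RefSeq start of each gene (GRCh38.p14) were found for all 10 members and for 27305 genes in all. The pair with the most opposite differences in counts, AMHR2 (chr12:53423605-53423854, plus strand) and ACVR1 (chr2:157876331-157876580, minus strand), are shown 5′ to 3′, with each CG pair, the site of DNA methylation in vertebrates, in capitals.
AMHR2: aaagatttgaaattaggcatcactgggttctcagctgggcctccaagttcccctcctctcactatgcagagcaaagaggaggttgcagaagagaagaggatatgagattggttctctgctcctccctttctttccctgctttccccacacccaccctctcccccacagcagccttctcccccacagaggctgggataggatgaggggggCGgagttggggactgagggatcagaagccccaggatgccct
ACVR1: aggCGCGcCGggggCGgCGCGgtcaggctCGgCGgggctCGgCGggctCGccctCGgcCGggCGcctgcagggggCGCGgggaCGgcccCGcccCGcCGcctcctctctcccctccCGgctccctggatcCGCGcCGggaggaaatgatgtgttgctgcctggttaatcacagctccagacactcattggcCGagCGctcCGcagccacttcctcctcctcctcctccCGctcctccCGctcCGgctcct
AMHR2 holds 1 CG pair, fewer than any other member, where ACVR1 holds 30 and the median gene 11. Of all genes, 6.39% had fewer CG pairs than AMHR2. Its share of G and C bases, 56%, lay within the members' range of 40.8% (ACVR2A and TGFBR2) to 82.8% (ACVR1B), beside a median of 58% over all genes. TGFBR2 had 7, BMPR1A 9, ACVR2A 14, BMPR1B 24, ACVR2B 26, TGFBR1 35, BMPR2 36 and ACVR1B 48. The letters GGGCGG on either strand, a core bound by SP1-type factors, occurred in 5 of the 10 members, AMHR2 and ACVR1 among them, and in 42.3% of all genes. The letters CAGAC on either strand, a SMAD-binding element, occurred in ACVR1, TGFBR1 and BMPR2, and in 37.8% of all genes. These matches describe the sequence and are not measured binding sites. The RefSeq start used for ACVR1 lies upstream of the GENCODE gene model (157736444 to 157875862), as do those of BMPR1A and BMPR2, among others. The bases read for TGFBR1 and ACVR2A lie inside their gene models. For TGFBR1 the first of 8 RefSeq starts was used. The CG counts may therefore not compare like positions, and methylation was not analysed here.

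Among the type I receptors that act on SMAD1, SMAD5 and SMAD9, ACVR1 was higher in all 3 knockdown-labelled libraries. ACVR1 (ENSG00000115170, chromosome 2) is the kinase also known as ALK2. It stood at 15.7, 13.9 and 16.2 CPM in controls 1, 2 and 3 against 32.1, 48.1 and 20.7 CPM in the knockdown-labelled libraries 1, 2 and 3. The groups did not overlap, but the higher group spread widely, with knockdown 2 highest and knockdown 3 closest to the controls. Its means were 15.3 ± 1.23 and 33.6 ± 13.7 CPM (SD, n = 3), which is 1.14 on the log2 scale (SE 0.27, 95% interval 0.55 to 1.73). It did not pass edgeR's test over all genes (adjusted p = 0.0913), nor did any other gene, the smallest adjusted p being 0.0558. Its adjusted p was 0.00275 by DESeq2, which called 3.39% of genes higher and 3.55% lower, and 0.00208 by edgeR without knockdown 3, a fit that called 6.46% of genes higher and 8.3% lower. ACVR1 did not pass by limma voom (adjusted p = 0.0978). Nor did it pass by edgeR with any single library other than knockdown 3 left out (adjusted p from 0.121 to 0.408). Its log2 fold change was 0.78 without knockdown 2 (edgeR adjusted p = 0.121). That library had 37.5% of reads outside genes, and its part in the result was not tested.

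BMPR1A and BMPR1B, the other type I receptors of BMPs, had nearly equal means in both groups. BMPR1A stood at 83.0, 92.1 and 76.9 CPM in controls, against 84.3, 87.0 and 90.3 CPM in the knockdown-labelled libraries, and the groups overlapped. Its log2 fold change of 0.05 had a 95% interval of -0.25 to 0.36 (edgeR adjusted p = 0.855), and it turned negative without control 3. BMPR1B stood at 24.4, 32.8 and 27.0 CPM against 27.2, 34.1 and 23.8 CPM, again overlapping, with a log2 fold change of 0.02 and a 95% interval of -0.40 to 0.43 (edgeR adjusted p = 0.971). Its sign turned without control 1, control 3 or knockdown 2. BMPR1A has 2 annotated pseudogene copies, with 17 and 1 reads over the 6 libraries.

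The type I receptors that act on SMAD2 and SMAD3 did not pass either. ACVR1B, the activin receptor, was tight in controls at 55.1, 53.5 and 54.8 CPM and stood at 50.7, 47.1 and 54.7 CPM in the knockdown-labelled libraries. Its log2 fold change was -0.10, with a 95% interval of -0.40 to 0.20 (edgeR adjusted p = 0.71). TGFBR1, the TGF-beta receptor, stood at 79.7, 95.8 and 75.6 CPM against 85.4, 106.1 and 75.8 CPM, with the second replicate highest in both groups. Its log2 fold change was 0.09, with a 95% interval of -0.28 to 0.46 (edgeR adjusted p = 0.792), and it turned negative without knockdown 2.

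Of the type II receptors besides AMHR2, BMPR2 was the one whose groups did not overlap. BMPR2, which serves BMPs, stood at 92.3, 110.7 and 112.3 CPM in controls, against 113.5, 154.7 and 125.0 CPM in the knockdown-labelled libraries. The gap between the highest control and the lowest of the other group was small beside the spread within either. Its log2 fold change was 0.32, with a 95% interval of -0.04 to 0.68 (edgeR adjusted p = 0.293). ACVR2A, which serves activin and BMPs, stood at 37.3, 45.3 and 41.4 CPM against 48.4, 55.0 and 43.4 CPM (log2 difference 0.24, 95% interval -0.10 to 0.59, edgeR adjusted p = 0.391). It overlaps ORC4 on the opposite strand (85.9 and 102.3 CPM), and its counts are uncertain there, since no source used here states whether counting used strand.

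ACVR2B and TGFBR2 had nearly equal means. ACVR2B stood at 49.3, 67.2 and 50.7 CPM in controls, where control 2 was apart, against 55.6, 60.9 and 51.9 CPM in the knockdown-labelled libraries (log2 difference 0.01, 95% interval -0.35 to 0.37, edgeR adjusted p = 0.98). An antisense gene, ACVR2B-AS1, overlaps it at 1.93 and 2.58 CPM. TGFBR2, the type II receptor of TGF-beta, stood at 22.9, 27.8 and 28.997 CPM against 32.8, 24.8 and 23.0 CPM (log2 difference 0.02, 95% interval -0.39 to 0.42, edgeR adjusted p = 0.97). The groups overlapped for both genes, although TGFBR2 in knockdown 1 lay above every control, and both signs turned when single libraries were left out.

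Across the 9 members other than AMHR2, 8 log2 fold changes were positive and 1 negative, with a median of 0.05, and 6 lay within 0.1 of 0. All 10 members passed the filter on low counts. At an adjusted p of 0.05, edgeR called 0 of the 9, where it called 0% of all genes in either direction. At an unadjusted p under 0.05 it had 1 of the 9, ACVR1, beside 9.93% of all genes higher and 10.6% lower. The groups did not overlap in 2 of the 9, ACVR1 and BMPR2, both higher, beside 12.5% of all genes higher and 14.3% lower. These shares are near those of all genes for so few members.

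**Figure D2:**
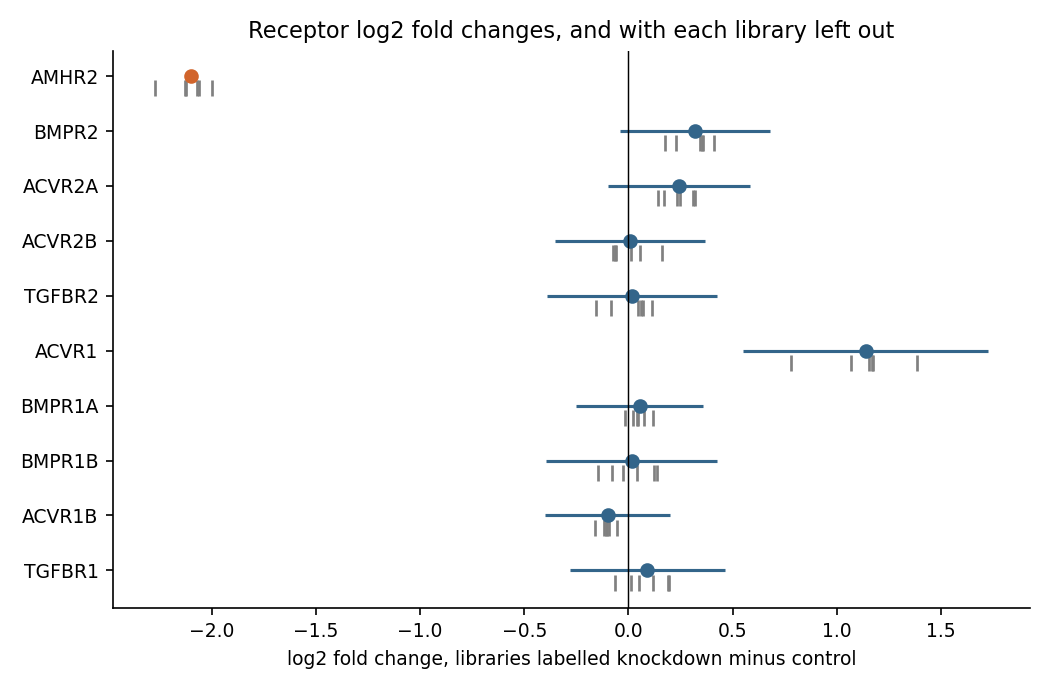
Log2 fold change of each receptor, knockdown-labelled libraries minus control (horizontal axis), as dots with 95% intervals from edgeR, and below each dot grey ticks for the value with 1 library left out. AMHR2 (orange) has no interval because it was chosen for this difference. Its ticks stay between -2.27 and -2.001, those of ACVR1 between 0.78 and 1.39, and 6 of the 9 other dots lie within 0.1 of 0.

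Levels of different receptors were compared per length, as CPM per kilobase of annotated exon. In controls the order was TGFBR1 (12.2 ± 1.56), ACVR1B (9.57 ± 0.152), BMPR2 (8.83 ± 0.931), BMPR1A (7.36 ± 0.667), ACVR2A (6.10 ± 0.592), TGFBR2 (5.65 ± 0.690), BMPR1B (4.44 ± 0.680), ACVR1 (3.83 ± 0.309), ACVR2B (3.54 ± 0.632) and AMHR2 (0.907 ± 0.0448). Control libraries of neighbours in that order overlapped except for TGFBR1 over ACVR1B, BMPR1A over ACVR2A, and ACVR2B over AMHR2. In the knockdown-labelled libraries ACVR1 was number 4 at 8.43 ± 3.45, with individual libraries at 8.04, 12.1 and 5.197, and AMHR2 was again lowest at 0.209 ± 0.0407. By level per length, AMHR2 made up 3.65% ± 0.366 of the 5 type II receptors in controls and 0.765% ± 0.208 in the knockdown-labelled libraries. ACVR1 made up 10.3% ± 1.43 and 19.3% ± 5.42 of the 5 type I receptors. The summed level of type I receptors was 37.4 ± 2.36 and 42.5 ± 5.77, and of type II receptors 25.02 ± 2.57 and 27.7 ± 2.57, and libraries of the 2 groups overlapped in both sums. Most of the receptor transcript in these cells was thus of other receptors than AMHR2 in both groups.

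**Figure D3:**
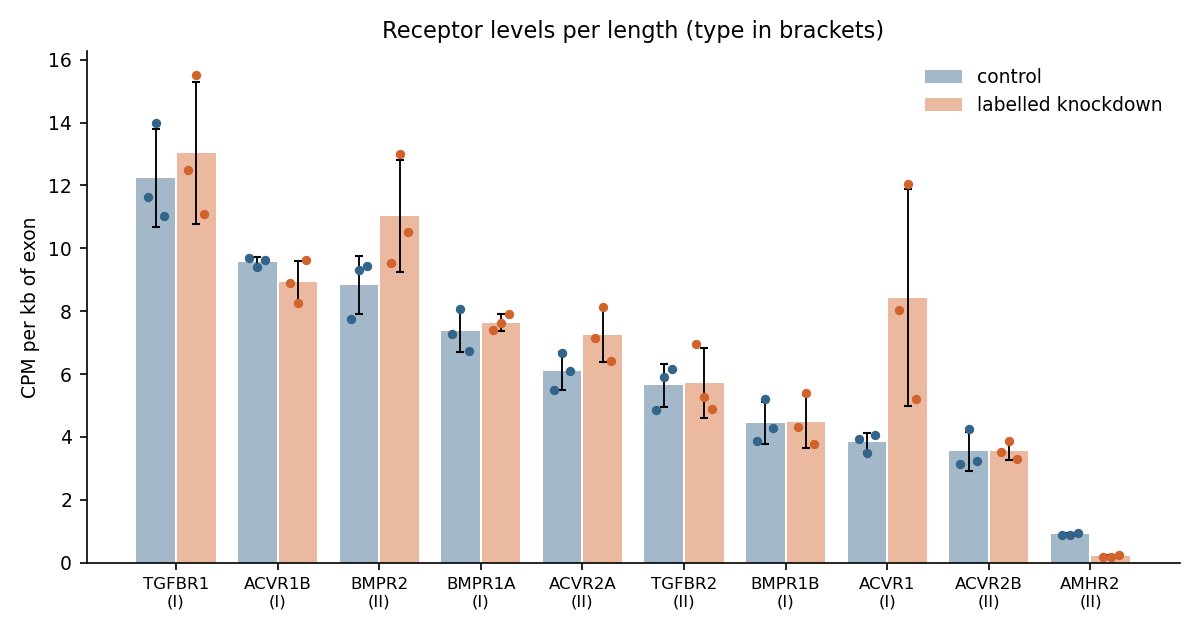
Level of each receptor per length (vertical axis, CPM per kilobase of exon, from 0) in controls (blue) and knockdown-labelled libraries (orange), ordered by the control mean. Bars are means, error bars SD, dots the 3 libraries. AMHR2 is lowest in both groups, at 0.907 and 0.209, and ACVR1 goes from 3.83 to 8.43 with a wide spread.

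The rest of the pathway was read by role, over 108 genes in lists that share some members, of which 85 were tested. EdgeR called 0 of the 85 in either direction. At an unadjusted p under 0.05 it had 18 higher and 5 lower, 27.1% of the 85 beside 20.5% of all genes, and the groups did not overlap in 24.7% of the 85 beside 26.8% of all genes. The median log2 fold change of the 85 was 0.13, against 0.02 over all genes tested.

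AMH, BMP and GDF ligands went both ways. Of 17, 10 were tested, with 4 positive and 6 negative log2 fold changes, 1 higher and 2 lower at an unadjusted edgeR p under 0.05 (beside 9.93% and 10.6% of all genes), and a median of -0.08. BMP3, a ligand that opposes other BMPs, stood at 16.6, 31.1 and 17.4 CPM in controls, against 4.69, 10.5 and 11.8 CPM in the knockdown-labelled libraries (log2 difference -1.27, edgeR adjusted p = 0.107). BMP7, an epithelial ligand of kidney development, stood at 26.0, 26.3 and 29.8 CPM against 16.8, 15.7 and 23.3 CPM (-0.56, edgeR adjusted p = 0.148). The groups did not overlap for these genes, whereas those of BMP2 did, at means of 24.2 ± 1.48 and 28.4 ± 8.47 CPM.

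TGF-beta and activin ligands had mostly positive differences, none past the threshold. Of 15, 7 were tested, 6 with positive values, 3 of them at an unadjusted edgeR p under 0.05, beside 9.93% of all genes higher, and the median log2 fold change was 0.57. INHBA, the activin A subunit, stood at 4.22, 1.08 and 3.12 CPM in controls, against 22.7, 22.1 and 2.53 CPM in the knockdown-labelled libraries 1, 2 and 3 (log2 difference 2.49, edgeR adjusted p = 0.11), so knockdown 3 lay among the controls. TGFB1 averaged 38.8 ± 5.77 and 57.7 ± 14.6 CPM and TGFB2 5.86 ± 0.903 and 9.64 ± 2.05 CPM, with edgeR adjusted p of 0.159 and 0.146. GDF11, a ligand that uses activin receptors, averaged 51.8 ± 3.15 and 40.6 ± 7.98 CPM and was lower in all 3 libraries.

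Genes that hold or release ligands are given list by list. Of 10 tested genes of latent TGF-beta handling, 7 were positive (median 0.13), and 1 passed an unadjusted p of 0.05, THBS1, beside 9.93% of all genes higher. This thrombospondin, which can activate latent TGF-beta, stood at 17.2, 12.035 and 17.1 CPM in controls, against 106.8, 66.4 and 18.3 CPM in the knockdown-labelled libraries (log2 difference 2.05, edgeR adjusted p = 0.0913). The integrin subunit ITGAV averaged 219.9 ± 35.7 and 267.2 ± 44.5 CPM, the protease FURIN 110.5 ± 5.17 and 114.2 ± 37.7 CPM, and LTBP3, a latent TGF-beta binding protein, 22.5 ± 0.177 and 15.6 ± 7.32 CPM. Of 11 tested extracellular antagonists, 5 were positive and 6 negative (median -0.14). At an unadjusted edgeR p under 0.05, 2 were higher, GREM1 among them, and 2 lower, SOSTDC1 among them. This stood beside 9.93% of all genes higher and 10.6% lower. GREM1, which binds BMPs, stood at 12.5, 6.11 and 16.3 CPM against 42.9, 55.8 and 22.2 CPM (log2 difference 1.79, edgeR adjusted p = 0.0783), with no overlap. The BMP antagonist SOSTDC1 averaged 1.58 ± 0.261 and 0.769 ± 0.431 CPM, and TWSG1, which binds BMPs with chordin, 137.5 ± 19.6 and 124.6 ± 15.5 CPM. Of 5 tested co-receptors, TGFBR3, which presents TGF-beta2 and inhibin, stood at 44.0, 46.3 and 41.6 CPM against 28.8, 25.3 and 40.3 CPM (-0.48, edgeR adjusted p = 0.186). RGMB averaged 37.5 ± 7.07 and 44.7 ± 4.69 CPM and the decoy receptor BAMBI 50.3 ± 5.33 and 40.5 ± 8.55 CPM. The 2 type I receptors outside the members, ACVR1C and ACVRL1, overlapped between groups, at 13.6 ± 1.64 and 14.9 ± 4.85 CPM for the first and 4.96 ± 1.17 and 4.62 ± 1.66 CPM for the second.

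Among the 6 SMAD effectors, 3 were positive and 3 negative (median 0.08). SMAD3, of the TGF-beta and activin branch, stood at 58.9, 48.3 and 59.0 CPM in controls, against 119.3, 88.2 and 86.9 CPM in the knockdown-labelled libraries (log2 difference 0.82, SE 0.17, edgeR adjusted p = 0.0767), higher in all 3 with no overlap. SMAD5, of the BMP branch, averaged 183.2 ± 15.3 and 236.1 ± 25.8 CPM (0.37, edgeR adjusted p = 0.213), and SMAD2 252.7 ± 25.6 and 249.2 ± 24.5 CPM. Of 14 intracellular inhibitors, 12 were positive (median 0.18) and 2 were higher at an unadjusted p under 0.05, beside 9.93% of all genes. These were PMEPA1, a feedback inhibitor induced by TGF-beta, at 18.2 ± 4.69 and 34.7 ± 8.98 CPM (edgeR adjusted p = 0.1), and the SMAD corepressor SKIL, at 109.2 ± 7.02 and 143 ± 23.1 CPM (edgeR adjusted p = 0.202). STRAP and NEDD4L, the most abundant of the list, averaged 204.5 ± 6.49 and 225.1 ± 57.9 CPM and 125.5 ± 4.22 and 131.3 ± 24.4 CPM.

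Known targets of the BMP and TGF-beta branches are given side by side. Of 11 BMP-SMAD targets, 7 were positive and 4 negative, with a median log2 fold change of 0.10. At an unadjusted edgeR p under 0.05 there were 0, beside 20.5% of all genes in either direction, a share near 0 for so few genes. ID4 averaged 158.6 ± 20.6 and 170.6 ± 45.7 CPM, ID2 146.6 ± 19.4 and 121.7 ± 63.1 CPM, SMAD7 53.1 ± 6.78 and 67.5 ± 12.9 CPM and HEY1 56.1 ± 8.73 and 46.2 ± 3.67 CPM, all overlapping. Of 16 TGF-beta-SMAD targets, 13 were positive, with a median of 0.58, and 9 were higher and 0 lower at an unadjusted p under 0.05, beside 9.93% of all genes higher. CTGF, a matrix-associated growth regulator, stood at 20.0, 10.8 and 21.9 CPM in controls, against 353.7, 129.9 and 34.1 CPM in the knockdown-labelled libraries (log2 difference 3.30, edgeR adjusted p = 0.0767). TAGLN, an actin-binding protein, stood at 3.73, 2.51 and 2.67 CPM against 12.8, 18.7 and 7.28 CPM (2.12, edgeR adjusted p = 0.0634). CDKN1A, the cell cycle inhibitor p21, averaged 170.3 ± 42.1 and 358.9 ± 157 CPM with knockdown 3 among the controls, and FN1, fibronectin, 344 ± 47.2 and 302 ± 61.4 CPM. Many of these targets also respond to other pathways, the list was chosen with earlier results of these data known, and the difference between the 2 lists was not tested.

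**Figure D4:**
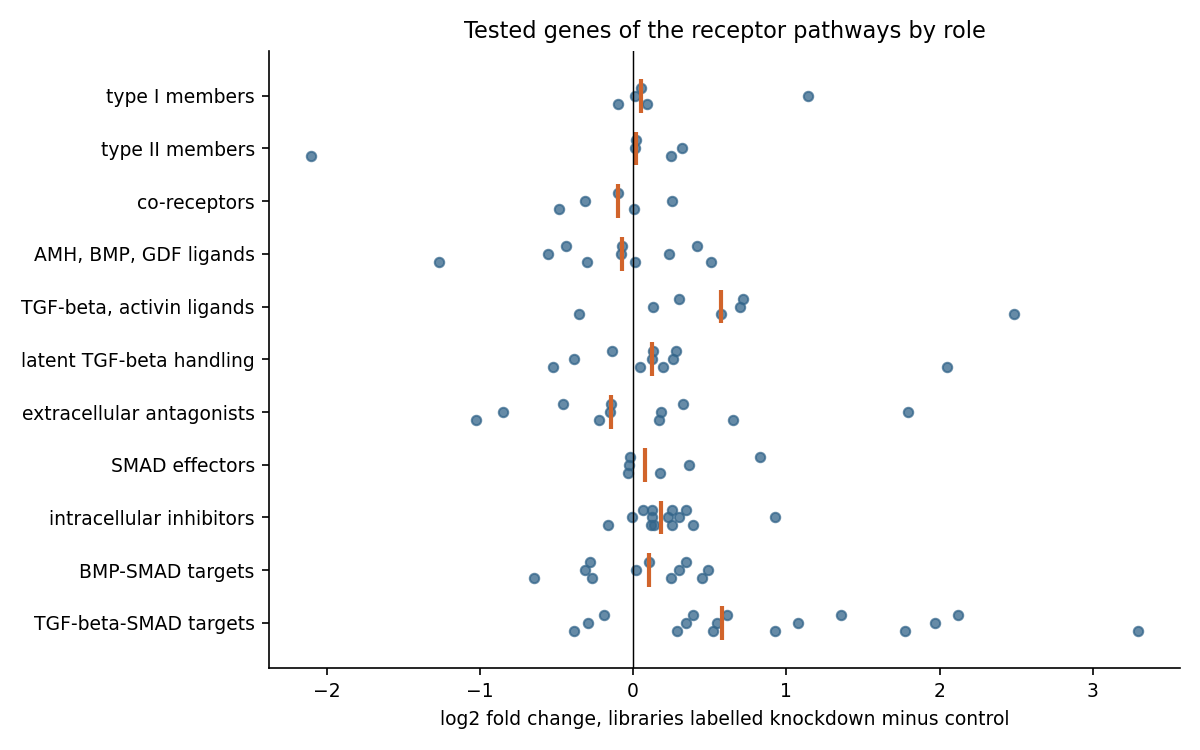
Log2 fold change, knockdown-labelled libraries minus control (horizontal axis), of each tested gene of the receptor pathways, by role. Dots are genes, spread vertically to separate them, and orange bars are list medians. The medians run from -0.14 for extracellular antagonists to 0.58 for TGF-beta-SMAD targets, and AMHR2 is the lone dot at -2.10 among type II members.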

How the data were processed

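Total RNA from HEK293 cells was made into stranded libraries after ribosomal RNA removal, per the labels' protocols. The authors deposited raw read counts per Ensembl gene, made with bcl2fastq 2.18, TopHat2 2.0.13 and HTSeq on hg38, per the submitters' processing notes. The sources used here do not give the HTSeq version, annotation release or strand setting. The 5 special HTSeq rows stayed out of library sizes and tests. Symbols, coordinates and exon lengths came from GENCODE release 29, which matched 57055 of 60675 identifiers, and all 152 listed symbols were matched. Sequences came from RefSeq (GRCh38.p14).

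The test was run in edgeR 4.0.16 under R 4.3.3 (TMM factors, filterByExpr, quasi-likelihood F test, two-sided) and adjusted by Benjamini-Hochberg over the 18267 genes kept, at 0.05. Log2 CPM used a prior count of 2. Intervals use the moderated degrees of freedom, 10.6. Alternatives were limma voom (limma 3.58.1), DESeq2 1.42.0, upper-quartile factors, DESeq2 size factors, no filter, at least 1 CPM in 3 libraries, a replicate block and leaving out each library. On simulated counts for this comparison, with 200 changed genes among 17881 tested, 57% of log2 changes of 1 and 97% of 2 were recovered, with 4 false calls. The simulation gave both groups the same spread, set by a trend over genes. Every real pair of replicates differed beyond counting noise, and knockdown-labelled pairs differed more. Chi-square was 10.03 to 17.6 times its degrees of freedom in controls and 36.3 to 63.7 times in the knockdown-labelled libraries. The simulated rates of recovery and false calls may therefore not hold for these libraries.

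The members and lists were chosen with earlier results of these data known. Named were all members, MOCS2, up to 2 abundant and 2 smallest-p genes per list, 2 neighbours on each side of AMHR2 and the 5 genes most like it. AMH, its only ligand, and the cell markers printed were added after values were seen.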

Additional observations from a re-analysis of the deposited data

How the results depend on the processing

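With knockdown 3 left out, edgeR called 1232 higher and 1583 lower genes, and over the leave-one-out fits these counts ran from 0 to 1232 and from 0 to 1583, with 4 lower without control 3. DESeq2 called 559 higher and 586 lower, edgeR with no filter 694 and 880, limma voom 0 and 0. Of the 9 receptors besides AMHR2, the only one called under any alternative was ACVR1, giving 1 higher by DESeq2, with no filter and without knockdown 3 (range 0 to 1 over the leave-one-out fits). Of the other pathway genes, 85 of which passed the filter in the main fit, DESeq2 called 9 higher and 1 lower. This stood beside 3.39% of all genes higher and 3.55% lower. Without knockdown 3 edgeR called 15 and 5 (ranges 0 to 15 and 0 to 5), beside 6.46% and 8.3% of all genes. With no filter it called 11 and 1, and the share of all genes was not computed for that fit. The SEs of that fit were 0.215 for CTGF and 0.197 for SMAD3, against 0.660 and 0.170 in the main fit. It thus took less account of each gene's own spread between libraries, and its calls, ACVR1 among them, carry that limit. The genes called without knockdown 3 included SMAD3, GREM1, THBS1, INHBA, CTGF, TAGLN and KLF10 higher, and BMP3, BMP7 and TGFBR3 lower. The cause of these differences was not tested.

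The replicate numbers did not pair the libraries (correlations of same-numbered deviations 0.11, -0.17 and -0.12). With a replicate block edgeR called 6 genes higher and 13 lower, and 0 receptors and 0 other pathway genes.

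AMHR2 ranged from -2.27 to -2.001 with a library left out and from -2.13 to -2.08 under the other alternatives. With no filter the signs of ACVR2B (-0.020), BMPR1B (-0.018) and TGFBR2 (-0.0075) turned, and with upper-quartile factors that of MOCS2 (0.0095). With a library left out, ACVR2B ranged from -0.076 to 0.16, BMPR1A from -0.017 to 0.12, BMPR1B from -0.15 to 0.14, TGFBR1 from -0.062 to 0.19, TGFBR2 from -0.16 to 0.11 and MOCS2 from -0.094 to 0.027. With the longest transcript as the length, AMHR2 made up 2.10% of the summed control level per length of the 10 receptors, against 1.46%. At 11 to 17 reads, AMHR2 in the knockdown-labelled libraries has wide counting error.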

Other observations

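The genes on both sides of AMHR2 on chromosome 12 gave the following values. SP1, a transcription factor gene that ends 7408 bases upstream on the same strand, averaged 163.1 ± 8.56 CPM in controls against 172.5 ± 8.91 CPM in the knockdown-labelled libraries (SD, n = 3), with a log2 fold change of 0.08 (edgeR adjusted p = 0.773). AAAS, a nuclear pore gene farther upstream on the opposite strand, averaged 75.2 ± 7.78 and 59.3 ± 15.4 CPM (-0.34, edgeR adjusted p = 0.328). PRR13, which starts 10070 bases downstream, stood at 40.9, 37.5 and 44.0 CPM in controls, against 24.0, 21.8 and 40.6 CPM in the knockdown-labelled libraries 1, 2 and 3 (-0.50, edgeR adjusted p = 0.241), so knockdown 3 lay among the controls there and not at AMHR2. PCBP2, an RNA-binding protein gene beyond it, averaged 96.2 ± 6.89 and 114.3 ± 15.9 CPM (0.25, edgeR adjusted p = 0.38). The groups overlapped for each of these 4 neighbours.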
